A study of Mus musculus with 6 samples.

Results

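The genes described here are those that make fatty acids, lengthen and desaturate them, and build them into triglycerides and wax esters. Members were chosen by name, as all probes of the array whose annotated gene symbol was on a list of 44 such genes. The array carried 59 probes for 41 of them, out of 25697 probes and 16593 named genes in all, and Acacb, Awat1 and Soat1 were not analysed here. RNA came from epidermal keratinocytes, the cells that build the outer layer of skin, of C57BL6 mice at 10 wk of age. In Med1 KO mice the floxed Med1 gene (MED1 fl/fl), which encodes a subunit of the Mediator coactivator complex, was removed by a Cre recombinase that the keratin 14 promoter drives. That promoter is active in basal keratinocytes, and descendants of a cell that lost the gene lack it too. CON mice were littermates that carried the same floxed gene and no Cre. There were 3 KO and 3 CON arrays (Illumina MouseRef-8 v2.0). Keratinocytes of each group came from the skins of 2 mice, and which arrays share a mouse is not stated, so p-values measure only the spread between these arrays. At this age the paper describes an abnormal shift towards hair growth (anagen) in KO skin, while CON skin rested (telogen). For its wounded KO mice it describes anagen patches among telogen skin, so the shift need not cover all KO skin. Genotype and hair cycle phase cannot be told apart in these samples.

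In lipogenic cells, acetyl-CoA from citrate or acetate is carboxylated to malonyl-CoA and built into palmitate by fatty acid synthase. Palmitate is then lengthened in the endoplasmic reticulum by a repeated cycle of condensation, reduction, dehydration and a further reduction, and desaturases place double bonds in the chain. The products are activated to acyl-CoA and esterified to glycerol, to sterols or to fatty alcohols. In skin, epidermal keratinocytes use very long chains for the ceramides of the permeability barrier, and sebaceous glands use triglycerides and wax esters for sebum.

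Levels are log2 values after background correction and quantile normalization. Changes are KO minus CON on that scale, given with a standard error (SE), n = 3 arrays a group throughout, and adjusted p-values are limma's over 10386 tested probes with a threshold of 0.05. A probe counted as detected where its detection p, which sets it against the negative control beads, was below 0.01, and it was tested where at least 3 of the 6 arrays detected it. The median deposited intensity lay between 105.7 and 117.3 per array and 9866 to 10636 probes were detected. The correlation between arrays was 0.989 to 0.993 within a group and 0.965 to 0.968 between KO and CON. Med1 itself averaged 5.90 ± 0.21 in KO and 6.86 ± 0.21 in CON (SD), a change of -0.96 ± 0.15 (adjusted p = 0.0018), although the place of its probe relative to the excised exons is not known here. The keratinocyte markers Krt5, Krt14, Krt1, Krt10, Trp63, Col17a1 and Itga6 were detected on all arrays.

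Of the 41 genes with a probe, 29 had a tested probe, and 13 of these were higher in KO, 1 was lower and 15 did not pass the test. That is 44.8% higher and 3.45% lower, beside 14.1% higher and 14.7% lower among all 7461 tested genes. The list was chosen with earlier results of these data known, so these shares describe it and are no test of it. The genes that rose were Acly, Acss2, Elovl3, Elovl4, Elovl5, Elovl6, Hsd17b12, Scd1, Acsl4, Acsl5, Dgat1, Awat2 and Mc5r, and Fads1 fell. Their fitted rises spanned 0.32 to 1.51 on the log2 scale. With genes that no CON array detected counted at their lower bound, the rise was at least 1.5-fold for 8 genes and at least 2-fold for 3 (Acss2, Elovl6 and Mc5r), beside 6.63% and 2.16% of all tested genes. These folds depend on the background correction: without it Acss2 changed by 0.94 and Mc5r by 0.64, both under 2-fold. The median change of the 29 genes was 0.32, with 23 of them above 0, and that of all tested genes was -0.0015. Elovl3 and Awat2 entered the test through the KO arrays alone, and Dgat1 and Mc5r were detected on 2 of 3 CON arrays, so for such genes passing the filter is itself tied to the difference. Among the 22 members detected on all 6 arrays, 9 were higher and 1 was lower, beside 13.9% higher and 14.2% lower of the 6588 genes detected on every array. For 14 of the 29 genes every KO array lay above every CON array, beside 22.7% of all tested genes, and for 2 every KO array lay below, beside 22.5%. Since RNA of whole preparations was measured, more or fewer cells of a type and more or less RNA per cell cannot be told apart.

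**Figure D1:**
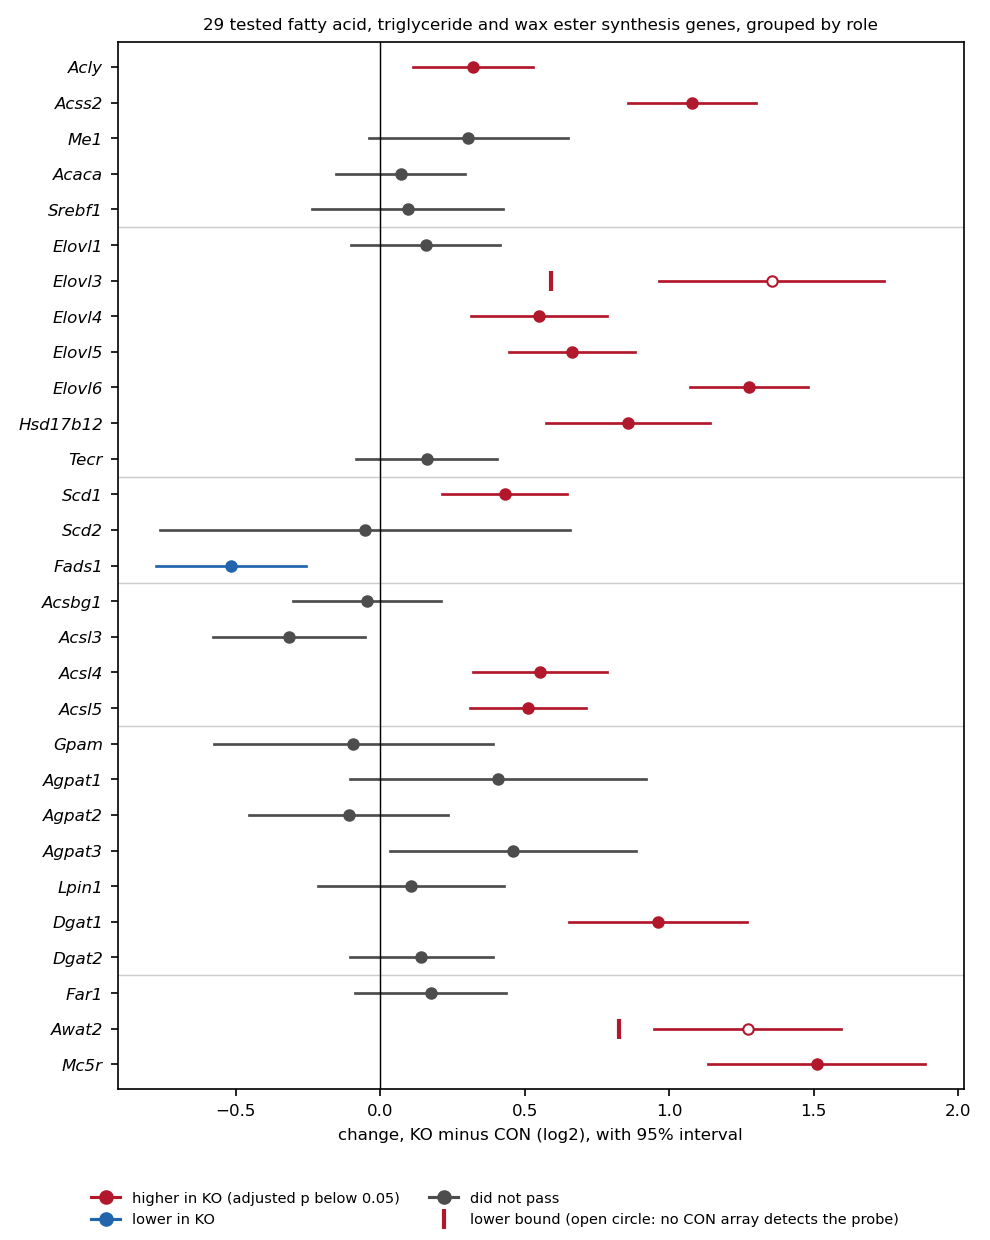
Change of each of the 29 tested genes, KO minus CON (log2), with its 95% interval, grouped by role from carbon supply at the top to wax esters at the bottom. Red marks the 13 genes higher in KO, blue the 1 lower (Fads1), and a vertical tick the lower bound where no CON array detected the probe (Elovl3 and Awat2).

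The group for carbon supply, fatty acid synthase and lipogenic transcription factors was uneven. Of its 5 tested genes (Acly, Acss2, Me1, Acaca and Srebf1), 2 rose and 0 fell. That is 40% higher, beside 14.1% of all tested genes. Acss2, which makes acetyl-CoA from acetate, had levels of 9.63, 9.77 and 9.81 on the KO arrays, against 8.70, 8.68 and 8.58 on the CON arrays. The groups were far apart relative to their spread, with a change of 1.08 ± 0.10, or 2.11-fold (adjusted p = 0.000119). Acly, which makes acetyl-CoA from citrate, averaged 12.09 ± 0.02 in KO and 11.77 ± 0.07 in CON (SD), a change of 0.32 ± 0.09 (adjusted p = 0.0298). This was the smallest of the 13 rises, and its call ended under 7 of 16 other settings, including when any KO array or CON replicate 2 or 3 was left out (adjusted p from 0.00117 to 0.121 over the 16).

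Neither the carboxylase nor the classical regulator passed. Acaca, which makes malonyl-CoA, changed by 0.07 ± 0.10 (adjusted p = 0.64), with a 95% interval from -0.15 to 0.29. Srebf1, the sterol-regulated transcription factor of lipogenesis, changed by 0.10 ± 0.14 (adjusted p = 0.67), with an interval from -0.24 to 0.43. Me1, a malic enzyme that supplies NADPH, changed by 0.30 ± 0.15 (adjusted p = 0.17), and its KO and CON arrays overlapped. Fasn, the fatty acid synthase, and Mlxipl, the carbohydrate-responsive factor ChREBP, each had 1 probe, which was not above background on any array and gives no comparison.

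In the elongation cycle 5 of 7 tested genes were higher (71.4%, beside 14.1% of all tested genes) and 0 lower. The median change of the 7 was 0.66 (0.59 with Elovl3 at its bound). The elongases catalyse the condensation that sets the pace of each cycle and differ in the chains they prefer. Elovl6, which lengthens palmitate and other saturated and monounsaturated chains, stood at 11.32, 11.26 and 11.36 on the KO arrays, against 10.07, 10.03 and 10.02 on the CON arrays. Replicates lay close together, and the change was 1.28 ± 0.09, or 2.42-fold (adjusted p = 3.47e-05). Elovl5, which lengthens polyunsaturated chains, read 10.68, 10.76 and 10.86 in KO, against 10.07, 10.17 and 10.07 in CON. Its change of 0.66 ± 0.10, or 1.59-fold, passed the test (adjusted p = 0.00139), and the groups did not overlap.

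Elovl3, an elongase of saturated and monounsaturated very long chains known from sebaceous glands and brown fat, was detected on all 3 KO arrays, at 5.57, 5.66 and 6.20, and on 0 of 3 CON arrays, where it read 4.64, 4.36 and 4.36. It was therefore at least 1.51-fold higher in KO (adjusted p = 0.000694), with a fitted change of 1.36 ± 0.17 that is no bound. Elovl4, which makes the ultra-long chains of barrier ceramides, lay between 12.43 and 12.72 in KO and between 12.02 and 12.03 in CON. Its change was 0.55 ± 0.10 (adjusted p = 0.00525). Elovl1, which lengthens saturated very long chains and is needed for the barrier, was measured by 4 tested probes whose changes ran from -0.16 to 0.33, and 0 of them passed. The brightest changed by 0.16 ± 0.11, with an interval from -0.10 to 0.42 (adjusted p = 0.34). Elovl2 and Elovl7 were detected on no array.

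Of the 2 reductases on either side of the dehydration, 1 passed the test. Hsd17b12, the ketoacyl-CoA reductase of the cycle, had levels of 8.80, 9.15 and 8.81 on the KO arrays, against 8.17, 8.03 and 7.97 on the CON arrays. The groups did not overlap, and the change was 0.86 ± 0.12, or 1.81-fold (adjusted p = 0.00142). Tecr, the enoyl-CoA reductase that closes the cycle, had 3 tested probes with changes of 0.16, 0.15 and 0.12, each with overlapping groups and none past the threshold. The dehydratases between them, Hacd1 to Hacd4, are other genes of the pathway: Hacd2 rose by 0.63 ± 0.20 (adjusted p = 0.0443) and Hacd3 by 0.53 ± 0.10 (adjusted p = 0.00503). Hacd1 changed by 0.31 ± 0.12 (adjusted p = 0.077) and Hacd4 by -0.13 ± 0.13 (adjusted p = 0.48). The call of Hacd2 ended under 9 of 16 other settings, among them without KO replicate 2 or 3 or CON replicate 2 or 3.

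**Figure D2:**
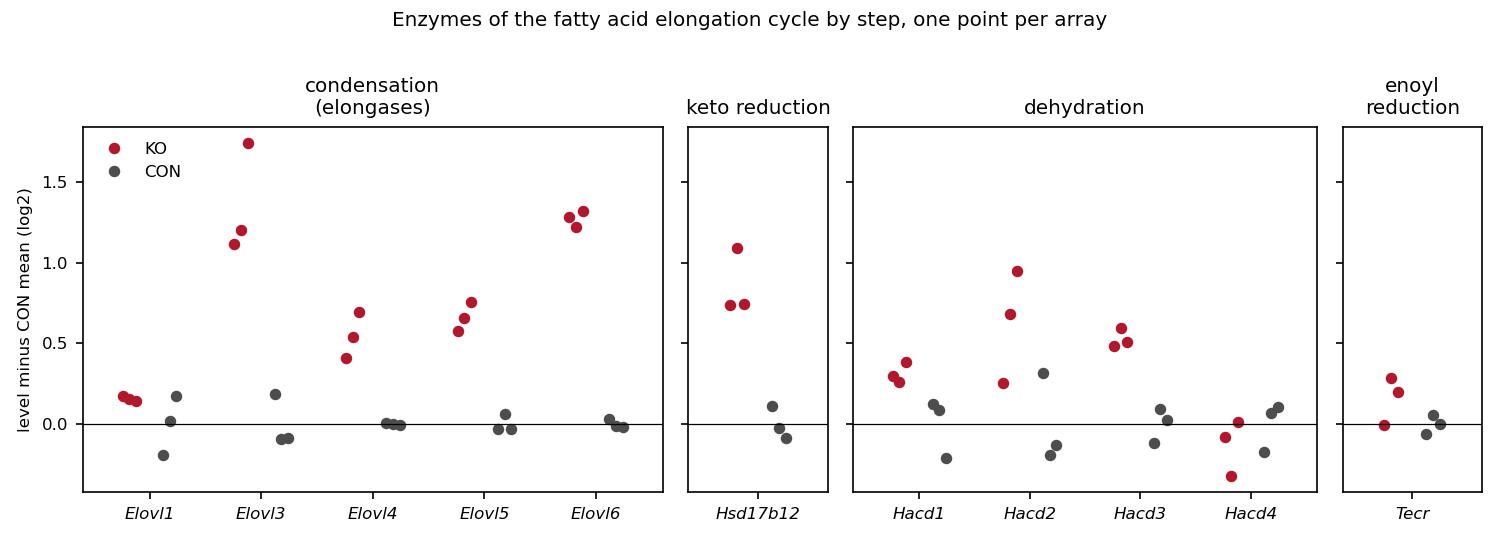
Level on each array minus the CON mean of the same probe (log2), for the enzymes of the elongation cycle in order of their step, with KO arrays in red left of CON arrays in grey. KO points of Elovl3, Elovl4, Elovl5, Elovl6, Hsd17b12, Hacd1 and Hacd3 lie above all CON points, those of Elovl1, Hacd2, Hacd4 and Tecr overlap them, and CON points of Elovl3 come from arrays that did not detect it.

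Since several of these genes rose together, the 250 bases before their annotated start sites were read from RefSeq (GRCm38.p6), on the strand of the gene and 5′ to 3′. They are shown for the elongases with an entry and a tested probe and for Acss2, which had the smallest adjusted p outside this family. The windows are chr3:129532136-129532385 for Elovl6, chr9:77917115-77917364 for Elovl5, chr9:83806306-83806555 for Elovl4 (minus strand), chr4:118427843-118428092 for the first listed start of Elovl1 and chr2:155517793-155518042 for Acss2. Capitals mark matches, on either strand, to the motifs named after the sequences.
Elovl6: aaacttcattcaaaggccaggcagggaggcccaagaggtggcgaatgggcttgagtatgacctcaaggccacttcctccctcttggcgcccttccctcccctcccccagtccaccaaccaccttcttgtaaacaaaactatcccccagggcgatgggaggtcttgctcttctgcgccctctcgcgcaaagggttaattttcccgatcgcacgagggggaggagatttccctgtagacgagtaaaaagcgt
Elovl5: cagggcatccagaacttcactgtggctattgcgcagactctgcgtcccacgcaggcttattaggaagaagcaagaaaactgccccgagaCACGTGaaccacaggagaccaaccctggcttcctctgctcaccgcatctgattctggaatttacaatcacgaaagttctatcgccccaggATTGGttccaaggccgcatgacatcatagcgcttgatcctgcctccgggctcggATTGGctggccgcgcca
Elovl4: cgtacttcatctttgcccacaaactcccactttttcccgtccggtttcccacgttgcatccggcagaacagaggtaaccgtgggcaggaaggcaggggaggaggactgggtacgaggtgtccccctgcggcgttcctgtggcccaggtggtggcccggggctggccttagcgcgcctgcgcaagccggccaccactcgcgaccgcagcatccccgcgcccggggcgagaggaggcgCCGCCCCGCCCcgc
Elovl1: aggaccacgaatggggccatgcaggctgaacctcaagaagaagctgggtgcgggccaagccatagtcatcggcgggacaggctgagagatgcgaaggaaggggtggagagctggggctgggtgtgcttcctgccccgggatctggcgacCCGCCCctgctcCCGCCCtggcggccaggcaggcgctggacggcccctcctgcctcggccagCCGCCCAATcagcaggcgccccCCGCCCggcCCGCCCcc
Acss2: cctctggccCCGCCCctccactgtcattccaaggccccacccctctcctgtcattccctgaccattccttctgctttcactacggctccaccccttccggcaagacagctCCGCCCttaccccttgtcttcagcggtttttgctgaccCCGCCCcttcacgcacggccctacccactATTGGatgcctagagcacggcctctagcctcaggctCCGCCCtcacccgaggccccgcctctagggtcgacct
In these windows the GC box GGGCGG had 4 matches in Acss2, 5 in Elovl1, 2 in Elovl4 and 0 in Elovl5 and Elovl6, and the CCAAT box CCAAT had 2 in Elovl5, 1 in Acss2 and 1 in Elovl1, where it shares bases with a GC box. The E-box CACGTG, which ChREBP and other factors bind, occurred once, in Elovl5. Elovl6 held no match to any motif searched.

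Over the 36 member genes with an entry there were 47 start sites, 10 of them of 9 genes that rose. The SREBP site of the LDL receptor type, TCACNCCAC, was found in 1 of the 47 (Mlxipl) and 0 of the 10, beside 1.05% of all 32851 promoters. CACGTG was found in 3 of 47 and 1 of 10, beside 6.02%. The nuclear receptor direct repeats of AGGTCA, spaced by 1 and by 4 bases, were found in 0 of 47, beside 0.0335% and 0.0152%. CCAAT stood in 22 of 47 and 6 of 10, beside 33.8%, and GGGCGG in 27 of 47 and 6 of 10, beside 32.7%. TATAAA stood in 1 of 47 and 0 of 10, beside 12.4%. A match describes the letters of this window and is not a measured binding site, and windows without a match say nothing of the factors.

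Among the desaturases the calls went both ways. Scd1, which places the first double bond in stearate and palmitate and is abundant in sebaceous glands, averaged 11.21 ± 0.02 in KO and 10.78 ± 0.10 in CON (SD). It rose by 0.43 ± 0.10, or 1.35-fold (adjusted p = 0.0108), and lost the call under median scaling (adjusted p = 0.0594). Fads1, which desaturates polyunsaturated chains on the way to arachidonate, was at 7.77, 7.52 and 7.84 on the KO arrays, against 8.23, 8.31 and 8.14 on the CON arrays. The highest KO array lay below the lowest CON array, and the change was -0.52 ± 0.11 (adjusted p = 0.0107).

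Scd2, a close relative of Scd1, read 6.10, 4.85 and 4.76 on the KO arrays, of which only KO replicate 1 detected it, against 5.17, 5.40 and 5.30 on the CON arrays, all of which did. Its change of -0.05 ± 0.31 did not pass (adjusted p = 0.92), but without KO replicate 1 it was called lower, with a change of -0.50 (adjusted p = 0.0257). Scd3, Fads2 and Fads6 were detected on no array and Fads3 on 1 CON array, so 4 of the 7 desaturases gave no comparison. Fads3, Fads2 and Fads1 are neighbours on chromosome 19, as are Scd3 and Scd2, with 1 protein-coding gene between Scd2 and Scd1. Probes of the Scd family may bind transcripts of more than 1 member, which was not tested.

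Acyl-CoA synthetases, which activate free fatty acids, split between 2 genes that rose and 2 that did not pass. That is 50% higher, beside 14.1% of all tested genes. Acsl4, which prefers arachidonate, had levels of 7.68, 7.76 and 7.84 on the KO arrays, against 7.16, 7.33 and 7.13 on the CON arrays. It rose by 0.55 ± 0.10, or 1.47-fold (adjusted p = 0.0046). A dimmer Acsl4 probe was detected on 3 of 3 KO arrays and 0 of 3 CON arrays and was at least 1.18-fold higher (adjusted p = 0.0113). Acsl5, which is also found on mitochondria, averaged 13.15 ± 0.02 in KO and 12.63 ± 0.04 in CON (SD), a change of 0.51 ± 0.09 (adjusted p = 0.00333). Acsl3, the synthetase of growing lipid droplets, read 7.44, 7.66 and 7.78 in KO, against 7.95, 7.85 and 8.04 in CON, without overlap. Its change of -0.32 ± 0.12 did not pass (adjusted p = 0.076), and it did pass without background correction (adjusted p = 0.0422) and on the authors' normalized values (0.042). Acsbg1 had 2 tested probes with changes of -0.05 and 0.11, and neither passed.

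Triglyceride assembly had 1 call among 7 tested genes, in its last step. That is 14.3% higher, close to the 14.1% of all tested genes. Dgat1, which joins the third acyl chain to diacylglycerol, had levels of 6.44, 5.99 and 6.26 on the KO arrays, against 5.31, 5.12 and 5.37 on the CON arrays, of which 2 detected it. The groups did not overlap, and the change was 0.96 ± 0.13, or 1.95-fold (adjusted p = 0.00121). Dgat2, an unrelated enzyme for the same step, averaged 11.45 ± 0.10 in KO and 11.31 ± 0.14 in CON (SD), and its change of 0.14 ± 0.11 did not pass (adjusted p = 0.37, interval -0.11 to 0.39).

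The earlier steps of this branch gave 0 calls. Gpam, which acylates glycerol phosphate, was detected on 1 of 3 KO and 2 of 3 CON arrays and changed by -0.09 ± 0.21 (adjusted p = 0.79). Of the enzymes that add the second chain, Agpat1 changed by 0.41 ± 0.22 (adjusted p = 0.22), Agpat2 by -0.11 ± 0.15 (adjusted p = 0.64) and Agpat3 by 0.46 ± 0.19 (adjusted p = 0.10). All KO arrays of Agpat3 lay above the CON arrays, of which 1 detected it, and without CON replicate 1 it passed (change 0.60, adjusted p = 0.0412). Lpin1, a phosphatidate phosphatase, changed by 0.11 ± 0.14 (adjusted p = 0.62). Lpin2, Mogat1 and Mogat2, the last 2 being monoacylglycerol acyltransferases, were detected on no array.

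Wax ester synthesis joins a fatty alcohol to an acyl-CoA. Awat2, a wax synthase of sebaceous glands, was detected on all 3 KO arrays, at 5.80, 6.25 and 6.09, and on 0 of 3 CON arrays, where it read 4.59, 4.92 and 4.82. It was at least 1.77-fold higher in KO (adjusted p = 0.000372), with a fitted change of 1.27 ± 0.14. Far1, a reductase that makes fatty alcohols, changed by 0.17 ± 0.11 (adjusted p = 0.30), and its relative Far2 was detected on no array. Mc5r, a melanocortin receptor that promotes sebum output in mouse, had the largest fitted change of the 29 genes. This rank depends on the background correction: without it Elovl6 (1.21), Acss2 (0.94) and Hsd17b12 (0.69) changed more than Mc5r (0.64). Mc5r read 6.78, 6.71 and 6.80 on the KO arrays, against 5.24, 4.91 and 5.61 on the CON arrays, of which 2 detected it. That is a change of 1.51 ± 0.16, or 2.85-fold (adjusted p = 0.000328), and the lowest KO array lay more than 1 log2 unit above the highest CON array.

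**Figure D3:**
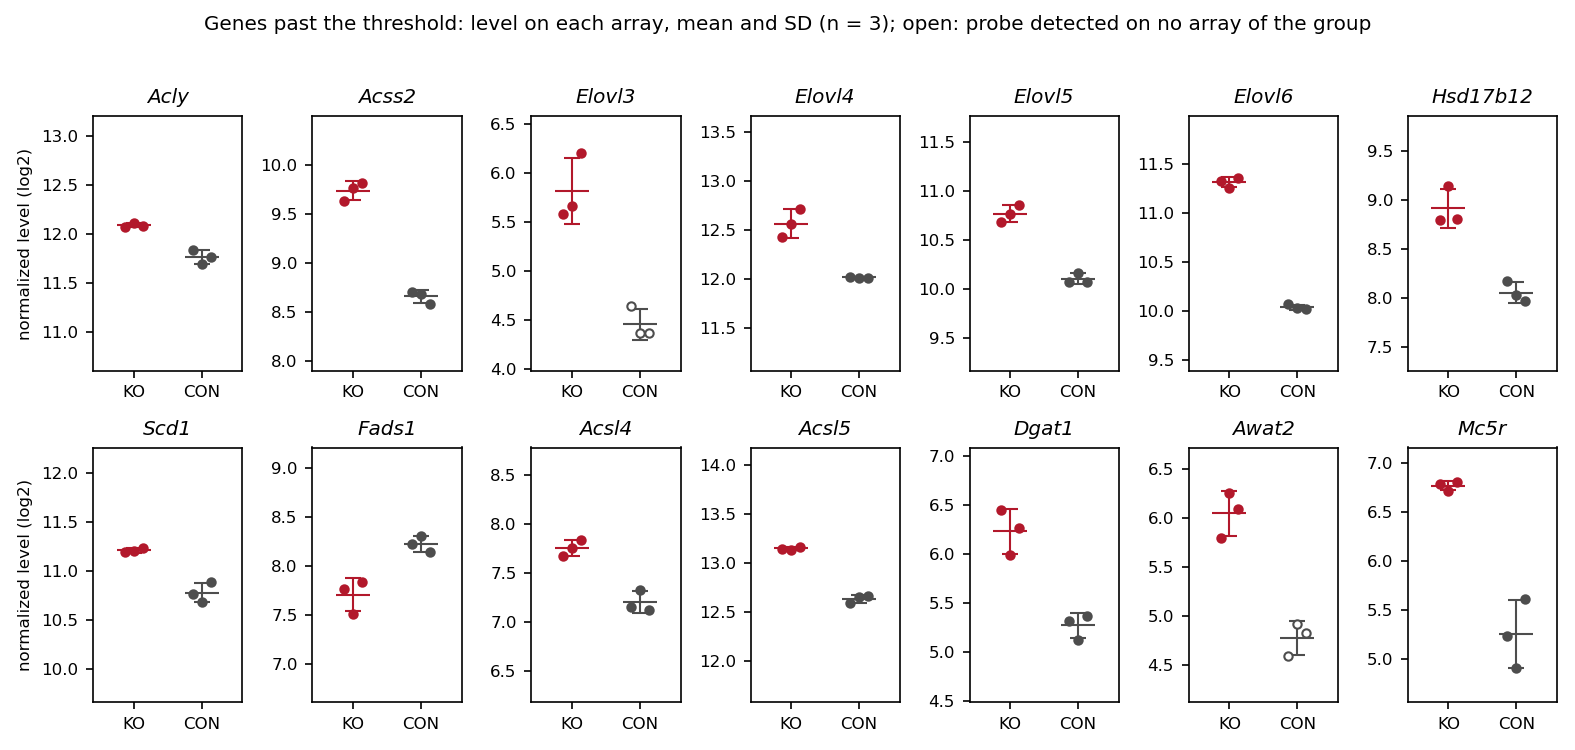
Normalized level (log2) on each array for the 14 genes past the threshold, KO in red left of CON in grey, with the mean and SD over 3 arrays, on axes that all span the same range of log2 units. Groups are apart in every panel, KO is lower for Fads1 alone, and open points (CON of Elovl3 and Awat2) come from groups in which no array detected the probe.

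As a description, with no test, the fitted changes of related enzymes were set side by side on the same arrays. The 15 pairs were chosen after their values were seen, and each was taken in the direction that gave a positive difference. The change of Elovl6 was larger than that of Elovl1 by 1.12 ± 0.13 (SE), than that of Elovl4 by 0.73 ± 0.08 and than that of Elovl5 by 0.61 ± 0.06. Hsd17b12 exceeded Tecr by 0.70 ± 0.12, Acsl4 and Acsl5 exceeded Acsl3 by 0.87 ± 0.13 and 0.83 ± 0.11, and Dgat1 exceeded Dgat2 by 0.82 ± 0.24. Elovl4 and Elovl5 exceeded Elovl1 by 0.39 ± 0.14 and 0.51 ± 0.12. The difference was 0.12 ± 0.05 between Elovl5 and Elovl4 and 0.04 ± 0.07 between Acsl4 and Acsl5. Among Agpat1, Agpat2 and Agpat3 the differences ran from 0.05 ± 0.39 to 0.57 ± 0.30, and Scd1 exceeded Scd2 by 0.48 ± 0.45. In these Agpat and Scd pairs the KO and CON arrays overlapped. The offset of the background correction pulls the changes of dim probes towards 0, which bears on Dgat1 against Dgat2. This difference also depends on the background correction itself: without it Dgat1 changed by 0.37 and Dgat2 by 0.14.

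A list of 48 other genes of the pathway, which supply it, regulate it or duplicate its steps, was read in the same fit, and 38 had a probe. This list too was chosen with earlier results of these data known. Of 26 with a tested probe, 9 rose (34.6%), 1 fell (3.85%) and 16 did not pass, with a median change of 0.26, beside 14.1% and 14.7% of all tested genes. Among regulators, Pparg, the nuclear receptor of lipid-storing cells, had levels of 8.04, 8.38 and 8.22 in KO, against 5.89, 5.45 and 6.03 in CON. The groups did not overlap, and the change was 2.42 ± 0.16 (adjusted p = 2.95e-05). Nr1h3, the oxysterol receptor LXRα, rose by 0.80 ± 0.17 (adjusted p = 0.00932). Mid1ip1, an activator of acetyl-CoA carboxylase, rose by 0.88 ± 0.11 (adjusted p = 0.000677). Insig2, which retains SREBP precursors in the endoplasmic reticulum, rose by 0.48 ± 0.14 (adjusted p = 0.0322), a call that ended under 8 of 16 other settings, among them without KO replicate 2 or 3 or CON replicate 2 or 3. The other 3 tested regulators, Scap, Insig1 and Mbtps1, did not pass with their brightest probe. A dimmer Insig1 probe was detected on 3 of 3 KO arrays and 0 of 3 CON arrays and was at least 1.29-fold higher (adjusted p = 0.0242).

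Of 6 tested genes for cofactors, carriers and NADPH supply, 2 rose (33.3%, beside 14.1% of all tested genes) and 0 fell. The other 4 (Gpd1, Cyb5a, Cyb5r3 and Acss1) did not pass. Slc25a1, the mitochondrial citrate carrier, increased by 0.61 ± 0.10 (adjusted p = 0.00275), and Idh1, a cytosolic source of NADPH, by 0.89 ± 0.09 (adjusted p = 0.000249). The fatty acid transport proteins, which are also acyl-CoA synthetases, went in opposite directions. Slc27a4, needed for the skin barrier, read 8.53, 8.65 and 8.65 in KO, against 6.98, 7.22 and 7.38 in CON, a change of 1.41 ± 0.12 (adjusted p = 8.95e-05). Slc27a3 read 8.10, 8.44 and 8.01 in KO, against 9.28, 9.57 and 9.16 in CON, a change of -1.15 ± 0.15 (adjusted p = 0.000812). Neither gene's groups overlapped, and Slc27a1 changed by 0.04 ± 0.12 (adjusted p = 0.85).

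Marker lists of other cell types were read in the same fit, and they did not all move in the same direction. Of 6 tested sebocyte markers that are not members, 5 rose: Pparg (also counted above), the lipid droplet gene Cidea (2.16 ± 0.10), Mgst1 (1.97 ± 0.10), the fatty acid binding protein gene Fabp5 (1.42 ± 0.10) and the droplet coat gene Plin2 (0.88 ± 0.23). That is 83.3% higher, beside 14.1% of all tested genes, in a list chosen with earlier results of these data known. Apoc1 changed by 0.30 ± 0.11 with its brightest probe, which did not pass (adjusted p = 0.077). Its other probe, detected on every array, did pass, with a change of 0.70 ± 0.10 (adjusted p = 0.0015). The summed linear level of the 9 sebocyte markers with a probe was 9740 to 10814 in KO and 5502 to 6072 in CON. Apoc1 (log2 level 12.47 in KO and 12.17 in CON) and Mgst1 (11.63 and 9.66) made up most of it. Plin5 and Prdm1 were detected on no array. Krt7, the other sebocyte marker that was not tested, lay the other way, at 4.49, 4.73 and 4.69 in KO, where no array detected it, against 5.32, 5.15 and 5.30 in CON, where 2 did. Scd1, Elovl3, Awat2 and Mc5r are known from the same gland, and the part of sebocytes in their rise was not tested. Among adipocyte markers, Adipoq, Car3, Cidec, Fabp4, Lipe, Plin1 and Retn were detected on no array. The summed level of the 9 with a probe was 955 to 1155 in KO and 949 to 1146 in CON. Most of that sum came from Adipor2, the only one tested (log2 level 10.01 in KO and 9.95 in CON), so it says little of the other markers.

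Keratinocyte markers summed to 80467 to 82038 in KO and 91774 to 97334 in CON, and 3 of 7 fell (Krt5, Trp63 and Col17a1). That is 42.9% lower, beside 14.7% of all tested genes. Quantile normalization gave Krt14 the same level, 14.73, on all 6 arrays, where it held the same rank, and Krt10 averaged 14.49 in KO and 14.52 in CON. Without these 2 genes the sum was 30252 to 31618 in KO and 42033 to 46006 in CON. Fibroblast markers summed to 378 to 427 in KO and 513 to 656 in CON, with Col1a1, Col1a2, Col3a1, Lum and Pdgfra detected on no array. Of 3 tested, 2 fell (66.7%, beside 14.7% of all tested genes). Anagen hair matrix markers summed to 513 to 547 in KO and 686 to 850 in CON, with Foxn1, Lef1 and Shh detected on no array. Krt35 and Krt71 were the 2 of 4 tested that fell (50%, beside 14.7% of all tested genes), and 0 rose. The paper describes a shift towards anagen in KO skin, and why these markers were not higher in KO was not tested. Of 5 tested T cell and Langerhans cell markers, Cd3e rose and Cd207 and Cd74 fell (sums of 3457 to 3880 in KO and 4228 to 4965 in CON). That is 20% higher and 40% lower, beside 14.1% and 14.7% of all tested genes. The part of these lists in the changes of the lipid genes was not tested.

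**Figure D4:**
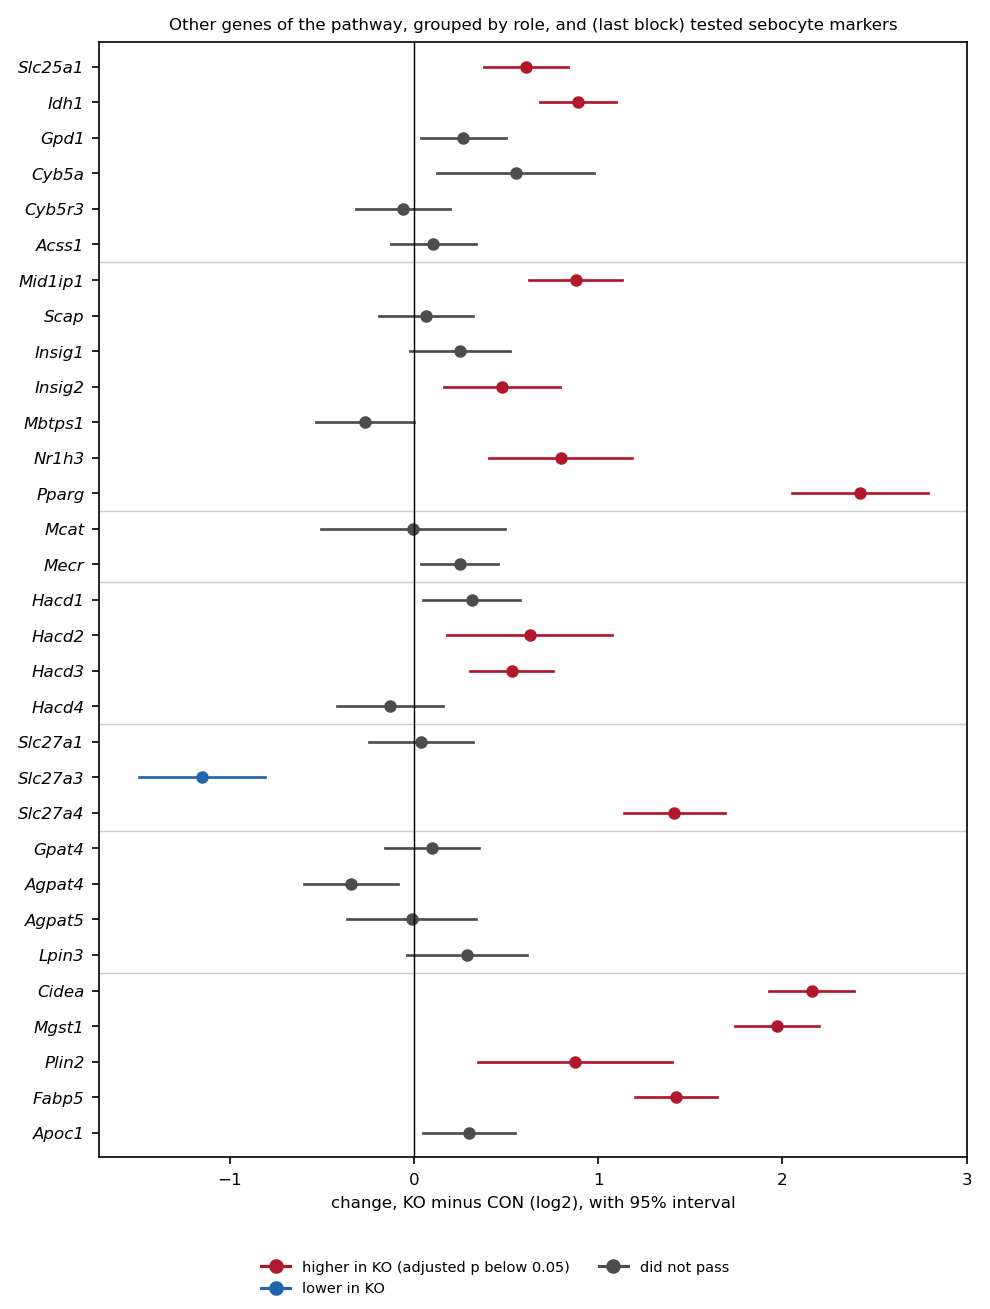
Change of the 26 tested other genes of the pathway and, in the last block, of 5 sebocyte markers, KO minus CON (log2), with 95% intervals. Pparg, at 2.42, and Cidea, at 2.16, changed most, and Slc27a3, at -1.15, is the 1 gene lower in KO.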

How the data were processed

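Total RNA of epidermal keratinocytes was labelled with biotin and hybridised to 1-colour bead arrays, 3 of KO and 3 of CON. The authors deposited linear intensity values of 25697 probes per array, without background subtraction or normalization, from GenomeStudio (2011.1, per the submitters' processing notes), each with a detection p-value. A second deposited table holds the authors' normalized intensity values (median 110.9 in each column), normalized in GenomeStudio by an algorithm not given in the sources used here, and it served as an alternative. No array-to-chip map was used.

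Background was corrected from the detection p-values, with an offset of 16, and arrays were quantile normalized with neqc of limma 3.58.1 (R 4.3.3). Offset and background pull changes of dim probes towards 0. Probes with a detection p below 0.01 on at least 3 of 6 arrays were compared between KO and CON by lmFit and eBayes (two-sided, no covariate), and p-values were adjusted over 10386 probes by the Benjamini-Hochberg method. The tested probe with the highest mean stands for a gene; 5 members had several tested probes, and their calls agreed. Where a group never detected the probe, "at least" marks a bound, which sets the brighter mean against a floor for the dimmer group: per array, the lowest detected signal, or the probe's own where higher, averaged. The steps were tested on simulated data. The number of arrays limits the precision.

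Probes were named from the platform annotation: 23978 had 1 gene symbol, 0 several and 1719, of which 588 were tested, none here. By Entrez ID 23962 matched RefSeq (GRCm38.p6), which changed 0 symbols. Promoters were matched by symbol for 36 of 44 genes.

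The members and lists were chosen with earlier results of these data known. Genes with a rise or fall of at least 1.5-fold past the threshold, or detected in 1 group alone, were given with the value on every array, other called genes with a change and adjusted p, and called other pathway genes by name; Fads1, Acsl4, Acsl3 and Scd2 were given array by array after their values were seen. Alternatives changed background correction, offset, normalization, value table, filter, moderation, replicate block, test, probe choice and arrays used. A chip block was not run, since the chip of each array is not known here.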

Additional observations from a re-analysis of the deposited data

How the results depend on the processing

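Over 16 other settings 0 of the 29 genes' calls turned direction, and 11 of the 13 rises were called wherever they were tested. With detection required on all 6 arrays, Awat2, Dgat1, Elovl3 and Mc5r were not tested, which left 9 rises of 22 genes. Median scaling left 11 rises (without Acly and Scd1) and gave 788 probes higher and 901 lower over the whole array. Members lower in KO numbered 2 (Fads1 and Acsl3) without background correction, on the authors' normalized values and by the methods' t-test unadjusted. The methods' t-test after Benjamini-Hochberg gave 13 rises and 949 probes lower, and Nr1h3 lost its call (adjusted p = 0.0809). Lower genes among the others of the pathway numbered 2 (Slc27a3 and Agpat4) without background correction, with an offset of 50, on the authors' values, with detection on all 6 arrays, with trended and robust moderation and by the unadjusted t-test. The median change of the members was 0.18 without background correction, 0.25 with the offset of 50, 0.37 with median scaling, 0.18 on the authors' values, 0.14 without a filter (over all 41 genes) and 0.24 with detection on all 6 arrays; the cause was not tested beyond the smaller or larger set of genes in the last pair. Dim genes moved most: without background correction Elovl3 changed by 0.46, Awat2 by 0.43, Dgat1 by 0.37 and Mc5r by 0.64, and all 4 passed.

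Leaving out 1 array at a time gave 12 to 14 members higher and 1 to 2 lower (2 without KO replicate 1, with Scd2), a median change of 0.26 (without CON replicate 3) to 0.36, 7 to 10 other pathway genes higher and 1 to 2 lower (2 without KO replicate 1, with Agpat4), and 998 to 1260 probes higher and 1052 to 1272 lower. Whether same-numbered KO and CON arrays share a litter or preparation is not stated. Their deviations from the group means correlated at -0.03, 0.07 and -0.05, and 2 of 6 arrays correlated best with their own number. Such values from 3 arrays a group cannot settle a pairing. With the replicate number as a block, 12 members were higher (without Acly, adjusted p = 0.0688), 1 was lower and the median was 0.32; 8 other pathway genes were higher and 1 lower, and 1241 probes were higher and 1277 lower.

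Detection limits the rest: for 11 members no array, and for Fads3 1 array, had a signal above background, which leaves their change unknown.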
